A study of Mus musculus with 12 samples.

Results

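Adgrg5, Adgrg1 and Adgrg3 are 3 neighbouring genes on mouse chromosome 8 that encode adhesion G protein-coupled receptors. They were chosen from the 31053 genes of the E16.5 matrices because Adgrg5 transcripts had been found low in E16.5 livers homozygous for the Nodder allele of Jag1, and the question was whether the genes next to it follow. The difference of Adgrg5 between homozygous and other libraries at E16.5 is therefore a description and carries no test, whereas Adgrg1 and Adgrg3, chosen by position, were tested. The 3 symbols each matched 1 gene in the matrices of both stages.

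Whole livers of mice were dissociated, and the transcripts of single cells were counted in droplets with the 10x Genomics system, which counts each captured transcript once by its unique molecular identifier (UMI). The labels list 6 groups of 2 animals, Jag1+/+, Jag1Ndr/+ and Jag1Ndr/Ndr at E16.5 of embryonic development and at postnatal day 3 (P3), all from crosses between Jag1Ndr/+ parents. Nodder is a missense allele of Jag1, a ligand of Notch receptors, present in every cell of the carriers. At P3 the homozygous pups were recognised by jaundice, per the labels' protocols, and TrypLE was used in the digestion at E16.5 only.

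Some of the 12 matrices repeated each other. The matrices of Jag1+/+ replicate 2 and Jag1Ndr/+ replicate 2 of E16.5 held the same values and enter as 1 library (the shared library), which left 5 libraries at that stage, 2 of them Jag1Ndr/Ndr and 3 without the homozygous label. At P3, matrices under different genotypes shared barcodes and 4 libraries remained. Libraries A and B are of unclear genotype, library C carries the homozygous label with less certainty because its matrix also held library A, and library D carries the heterozygous label. Of all pairs of matrices, 7 shared 53.4% to 100% of the smaller one's barcodes and the other 59 shared 0.547% to 1.72%. Kept cells numbered 16521 to 26131 per library at E16.5 and 13522 to 19354 at P3, with median depths of 5344 to 9281 and 2879 to 5970 UMIs. Levels are given in CPM, the UMIs of a gene scaled to a total of 1000000 UMIs over all genes in the same library and cell class, and are compared between libraries and classes, not between genes. Classes are clusters named from marker genes, hence "monocyte-like", and 11 were named at E16.5. They included hepatocyte-like cells led by Alb, Afp and Apoa1, the defining cell type of the labelled tissue.

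Adhesion G protein-coupled receptors carry a long extracellular part that is cut by the receptor itself in many members, and the stub left on the membrane part can act as a tethered agonist. Adgrg1, also called GPR56, binds collagen III and transglutaminase 2 and is known from blood stem and progenitor cells, cytotoxic lymphocytes and the developing brain. Adgrg3, or GPR97, is known from granulocytes. Adgrg5 has been linked to signalling through cyclic AMP and is the least studied of the 3.

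In GENCODE M21 on GRCm38, all 3 genes are protein-coding and lie on the plus strand in the order Adgrg5, Adgrg1, Adgrg3. Adgrg5 (ENSMUSG00000061577) spans bases 94923694 to 94943280 of chromosome 8, with 5 annotated transcripts. Adgrg1 (ENSMUSG00000031785) begins 31470 bases further on and spans 94974751 to 95014217, with 16 transcripts. Adgrg3 (ENSMUSG00000060470) begins 3474 bases after the end of Adgrg1 and spans 95017692 to 95045250, with 6 transcripts. Together they cover 121557 bases, and 0 other genes of the matrices overlap that stretch.

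The 250 bases before a RefSeq start of each gene (GRCm38.p6, plus strand) are printed so that the promoter of the gene that differed can be set beside those of the neighbours that are tested below. Capitals mark matches to 3 motifs searched on both strands, namely an ETS core spelled GAGGAA, a RUNX core spelled TGTGGT and a GATA core spelled AGATAA. Of 32851 promoter windows of the same length, 23.3% held the first, 14.0% the second and 9.99% the third.
Adgrg5 promoter, chr8:94923444-94923693: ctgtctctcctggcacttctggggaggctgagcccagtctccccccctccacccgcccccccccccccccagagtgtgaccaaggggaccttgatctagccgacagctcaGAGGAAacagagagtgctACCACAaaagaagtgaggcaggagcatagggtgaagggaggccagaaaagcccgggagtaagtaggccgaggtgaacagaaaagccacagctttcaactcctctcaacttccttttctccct
Adgrg1 promoter, chr8:94976859-94977108: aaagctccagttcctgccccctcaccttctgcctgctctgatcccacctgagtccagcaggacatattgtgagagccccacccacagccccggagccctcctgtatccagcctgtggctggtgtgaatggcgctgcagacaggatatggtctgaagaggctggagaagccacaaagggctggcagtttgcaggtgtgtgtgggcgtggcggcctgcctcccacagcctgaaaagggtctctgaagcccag
Adgrg3 promoter, chr8:95017442-95017691: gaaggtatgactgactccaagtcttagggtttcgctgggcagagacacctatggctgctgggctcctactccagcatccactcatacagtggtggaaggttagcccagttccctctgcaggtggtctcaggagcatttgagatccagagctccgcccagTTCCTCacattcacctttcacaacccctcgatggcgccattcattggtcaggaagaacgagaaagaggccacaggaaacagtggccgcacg
The Adgrg5 window held 1 match to the ETS core and 1 to the RUNX core, the latter on the minus strand. The Adgrg3 window held 1 match to the ETS core on the minus strand, and the Adgrg1 window held 0 matches. A match only says that these letters are present.

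At E16.5, Adgrg5 was highest in monocyte-like cells of the libraries without the homozygous label, and it was far lower in those of the homozygous libraries. In monocyte-like cells it measured 13.5 CPM in Jag1+/+ replicate 1, 13.4 CPM in the shared library and 14.3 CPM in Jag1Ndr/+ replicate 1, against 0.686 CPM in Jag1Ndr/Ndr replicate 1 and 1.63 CPM in Jag1Ndr/Ndr replicate 2. The 3 libraries without the homozygous label lay close together and the homozygous pair lay far below, with no overlap. These values rest on 91, 119 and 91 UMIs in the first 3 and on 5 and 11 UMIs in the homozygous pair, from 399 to 729 monocyte-like cells per library.

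The group means of Adgrg5 in monocyte-like cells were 13.7 ± 0.485 CPM (SD, n = 3) without the homozygous label and 1.16 ± 0.670 CPM (SD, n = 2) with it. The fitted log2 difference, homozygous over other, was -3.58 (SE 0.347). Exact 95% Poisson intervals, which cover counting error only, ran from 0.223 to 1.60 CPM and from 0.816 to 2.92 CPM in the homozygous replicates, and from 10.8 to 17.5 CPM over the other 3. Adgrg5 was still counted in both homozygous libraries.

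The share of monocyte-like cells with at least 1 Adgrg5 UMI was 19.8%, 14.3% and 15.8% in Jag1+/+ replicate 1, the shared library and Jag1Ndr/+ replicate 1, and 1.12% and 2.34% in the homozygous replicates. In erythroid-like cells, which should lack the gene, the share was 0.00941% to 0.0729%, at median depths of 4943 to 9166 UMIs compared with 11507 to 16160 in monocyte-like cells. The remaining homozygous shares therefore lay above that of erythroid-like cells of the same libraries.

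The monocyte-like cluster of E16.5 was led by Ccr2, F13a1 and Ms4a6c but also by Cd74 and Cst3, genes of antigen-presenting cells. The 8 monocyte markers summed to 2011 and 2584 CPM in the homozygous libraries and to 1936 to 2511 CPM in the others, and the 10 dendritic markers to 749.6 and 1398 CPM against 697.6 to 1036 CPM, with every marker of both lists detected in each library. As a further description of the same counts, cells were divided by whether they held at least 3 UMIs of MHC class II genes. Under that number, Adgrg5 measured 0.626 and 1.18 CPM in the homozygous libraries and 12.9 to 14.6 CPM in the others. In the 44 to 93 cells per library at or above it, the values were 1.11 and 5.03 CPM against 7.77 to 18.7 CPM. The larger fraction holds most of the cells described above. In the smaller one the counts were only 1 and 4 UMIs against 7 to 13, and the counting interval of Jag1Ndr/Ndr replicate 2 (1.37 to 12.9 CPM) overlapped those of all 3 other libraries, while that of replicate 1 (0.0282 to 6.20 CPM) overlapped all but that of Jag1+/+ replicate 1.

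Adgrg5 was low elsewhere. In promyelocyte-like cells, the precursors that make primary granule proteins such as Mpo and Elane, it measured 1.83, 2.71 and 1.63 CPM in the libraries without the homozygous label. Jag1Ndr/Ndr replicate 1 measured 0.217 CPM from 1 UMI, and replicate 2 had 0 UMIs, which allows up to 0.494 CPM. In basophil and mast-like cells the values were 1.04, 1.93 and 1.51 CPM against 0.895 and 0.360 CPM. Both homozygous libraries lay below the other 3 in 4 of the 11 classes (monocyte, promyelocyte, basophil and mast, and erythroid-like), and such a non-overlap was found in 4.59% of all pairs of class and gene. The last 2 rest on few counts. In basophil and mast-like cells there were 4 and 2 UMIs against 5, 11 and 8. The counting intervals of Jag1Ndr/Ndr replicate 1 (0.244 to 2.29 CPM) and replicate 2 (0.0436 to 1.30 CPM) both overlapped those of the other 3 libraries. In erythroid-like cells, which should lack the gene, there were 1 and 2 UMIs against 4, 8 and 5. Over all kept cells the levels were 0.772, 1.31 and 0.524 CPM against 0.0964 and 0.0976 CPM.

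**Figure D1:**
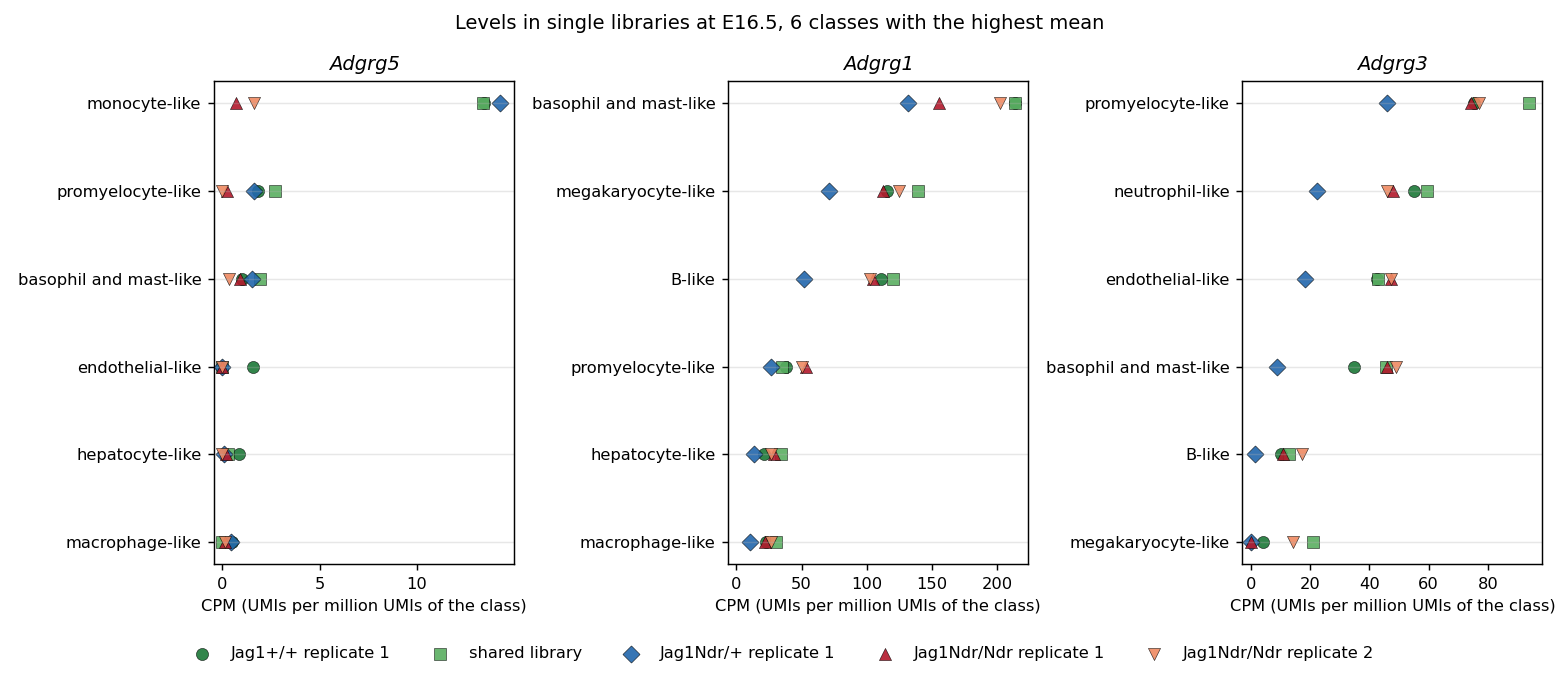
Levels of the 3 genes in each E16.5 library, in CPM on a linear axis, for the 6 classes with the highest mean of each gene. Each symbol is 1 library. For Adgrg5 the 2 homozygous libraries sit near 0 in monocyte-like cells while the other 3 lie between 13.4 and 14.3 CPM, and for Adgrg1 and Adgrg3 the lowest symbol in most classes is Jag1Ndr/+ replicate 1.

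Adgrg1 did not follow Adgrg5. Its highest levels were in basophil and mast-like, megakaryocyte-like and B-like cells, and in none of them were the homozygous libraries the lowest. In B-like cells, which at this stage express the surrogate light chain genes Vpreb1 and Igll1, Adgrg1 measured 111 CPM in Jag1+/+ replicate 1, 120.0 CPM in the shared library, 52.2 CPM in Jag1Ndr/+ replicate 1, and 105 and 102 CPM in the homozygous replicates. The homozygous pair lay inside the range of the others, but below both Jag1+/+ replicate 1 and the shared library. Jag1Ndr/+ replicate 1 lay far below all 4. The group means were 104 ± 1.79 CPM (SD, n = 2) and 94.4 ± 36.8 CPM (SD, n = 3).

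In basophil and mast-like cells Adgrg1 measured 214, 214 and 131 CPM in Jag1+/+ replicate 1, the shared library and Jag1Ndr/+ replicate 1, and 155 and 202 CPM in the homozygous replicates. This cluster was led by Mcpt8, Cpa3 and Prss34 but also by the platelet genes Pf4 and Ppbp. In megakaryocyte-like cells, the platelet-forming cells, the values were 116, 139 and 70.8 CPM against 112 and 125 CPM, from 33 to 69 cells per library. The homozygous libraries again lay between the others in both classes. In basophil and mast-like cells both lay below Jag1+/+ replicate 1 and the shared library, and only Jag1Ndr/+ replicate 1 was lower.

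Over all kept cells, Adgrg1 measured 37.0, 47.0 and 17.7 CPM in Jag1+/+ replicate 1, the shared library and Jag1Ndr/+ replicate 1, and 28.2 and 32.8 CPM in Jag1Ndr/Ndr. The log2 difference, homozygous over other, was 0.05 (SE 0.192, n = 2 and 3), and edgeR's quasi-likelihood fit gave an adjusted p of 1.00 over 16153 genes (Benjamini-Hochberg). That difference is smaller than the spread between replicates. Its sign depended on Jag1Ndr/+ replicate 1 and on the scaling, since it was -0.08 without that library and -0.15 when library totals were used in place of TMM factors, a change of scale that moved the median of all genes from -0.02 to -0.18.

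Within the 10 classes where it could be fitted, the log2 differences of Adgrg1 ranged from -0.08 (SE 0.333) in endothelial-like to 0.63 (SE 0.191) in promyelocyte-like cells. The latter had the smallest p of the 19 tests of Adgrg1 and Adgrg3 in classes, 0.00669 before and 1.00 after edgeR's Benjamini-Hochberg adjustment over 110394 pairs of class and gene. In that class Adgrg1 measured 38.1, 35.0 and 26.3 CPM against 53.4 and 50.2 CPM, so both homozygous libraries lay above the other 3, the opposite direction to Adgrg5 in the same cells. A non-overlap with the homozygous pair on top was found in 5.57% of all pairs. Erythroid-like cells gave 17.0, 32.7 and 8.07 CPM against 8.55 and 19.1 CPM, hepatocyte-like cells 21.4, 34.3 and 13.5 CPM against 28.6 and 26.6 CPM, and macrophage-like cells 22.6, 30.7 and 10.7 CPM against 22.2 and 26.6 CPM. In these classes the 2 groups overlapped. They also did in mesenchymal-like cells, where Adgrg1 was too low to be fitted, with 9.28, 26.3 and 19.0 CPM against 5.74 and 14.5 CPM from 20 and 9 UMIs.

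Adgrg3 did not follow Adgrg5 either. It was a gene of the granulocyte line and of endothelium at E16.5, highest in promyelocyte-like cells with 75.2, 93.7 and 46.0 CPM in Jag1+/+ replicate 1, the shared library and Jag1Ndr/+ replicate 1, and 74.3 and 76.9 CPM in Jag1Ndr/Ndr. In neutrophil-like cells the values were 55.1, 59.6 and 22.3 CPM against 47.9 and 46.1 CPM. The homozygous pair lay inside the range of the other 3 in both classes. In neutrophil-like cells both homozygous values lay below Jag1+/+ replicate 1 and the shared library, and only Jag1Ndr/+ replicate 1 was lower. In monocyte-like cells, where Adgrg5 was highest, Adgrg3 measured 8.44, 8.68 and 2.82 CPM against 11.1 and 7.43 CPM, a log2 difference of 0.49 (SE 0.356).

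In endothelial-like cells, marked by Lyve1, Stab2 and Kdr, Adgrg3 measured 42.5, 42.8 and 18.4 CPM against 47.4 and 47.2 CPM, and in basophil and mast-like cells 35.0, 45.7 and 9.05 CPM against 45.9 and 49.0 CPM. In the latter class the counting interval of Jag1Ndr/Ndr replicate 1 (39.8 to 52.6 CPM) held the 45.7 CPM of the shared library. A non-overlap with the homozygous pair on top was found in 5.57% of all pairs. In endothelial-like and in basophil and mast-like cells the homozygous libraries were the highest, by a margin smaller than the gap down to Jag1Ndr/+ replicate 1. The log2 differences were 0.46 (SE 0.256) and 0.73 (SE 0.461), each with an adjusted p of 1.00 in edgeR. Over all kept cells Adgrg3 measured 11.3, 19.2 and 4.25 CPM against 10.1 and 11.7 CPM, a log2 difference of 0.19 (SE 0.325, adjusted p = 1.00 in edgeR) that became -0.07 without Jag1Ndr/+ replicate 1 and -0.09 with library totals.

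In edgeR's test, 0 of the 19 pairs of class and gene for Adgrg1 and Adgrg3 passed an adjusted p of 0.05, and the same held for 0.0% of all 110394 pairs. At an unadjusted p under 0.05 there were 1889 pairs among all, and DESeq2 called 16. Over all kept cells edgeR likewise called 0.0% of 16153 genes, with 171 at an unadjusted p under 0.05 and 4 called by DESeq2. With so few libraries, a p that misses the threshold does not show that the levels were equal.

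**Figure D2:**
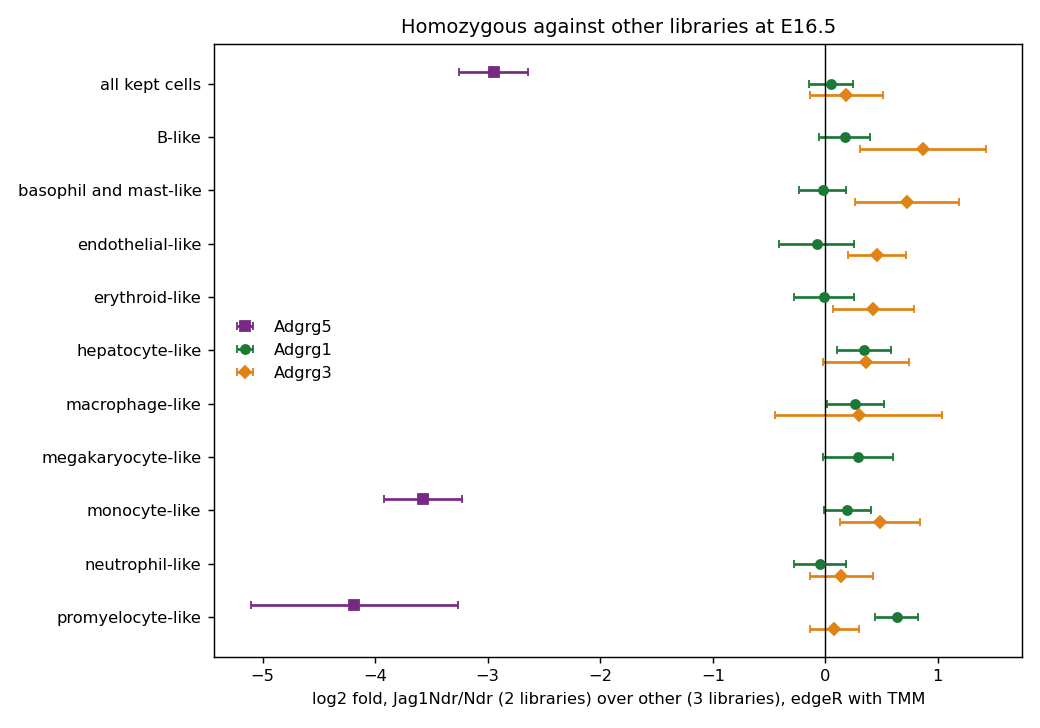
Log2 fold of homozygous (2 libraries) over other libraries (3) at E16.5 in edgeR with TMM scaling, by class, with bars of 1 SE. Adgrg5 was fitted in 2 classes and over all kept cells and lies between -2.95 and -4.19, while Adgrg1 and Adgrg3 lie between -0.08 and 0.87. The Adgrg5 values are a description, since the gene was chosen on them.

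The library that stood apart for Adgrg1 and Adgrg3 was Jag1Ndr/+ replicate 1, which carries 1 Nodder allele. This was noticed in the values and is described without a test. It was the lowest of the 5 libraries for Adgrg1 in 9 of 11 classes, by 1.49-fold to 2.39-fold against the mean of the other 4, and for Adgrg3 in 9 of 11 classes, by 1.74-fold to 8.38-fold. For Adgrg5 it was the lowest in 0 of 11 classes, but that gene was chosen because the homozygous libraries were low. This count can therefore not be set against those of Adgrg1 and Adgrg3. Among the 3 libraries without the homozygous label, Jag1Ndr/+ replicate 1 had the lowest Adgrg5 over all kept cells (0.524 CPM) and the highest in monocyte-like cells (14.3 CPM). Of all pairs of class and gene 32.7% had this library below the other 4, of those with a mean of at least 5 CPM 50.2% did, and of the genes tested over all kept cells 65.8% did.

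The gap was widest for Adgrg3 in B-like cells, where Jag1Ndr/+ replicate 1 measured 1.53 CPM (28 UMIs) and the other 4 libraries 10.3, 12.9, 10.9 and 17.3 CPM (719 UMIs in all). The share of B-like cells with an Adgrg3 UMI was 1.36% there and 7.56% to 10.2% in the others, at median depths of 7382 UMIs and 5918 to 8143 UMIs. In erythroid-like cells, where Adgrg3 is near background, the share was 0.257% in that library and 0.358% to 0.811% in the others. Basophil and mast-like cells showed a 4.85-fold gap, with 48 UMIs in Jag1Ndr/+ replicate 1.

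Many other genes were also lower in Jag1Ndr/+ replicate 1 in CPM, so the members are read against that background. Among genes with a mean of at least 5 CPM, the median log2 ratio of this library to the mean of the other 4 was -0.56 over all kept cells, -0.41 in B-like and -0.19 in basophil and mast-like cells. Against these, Adgrg1 measured -1.03, -1.07 and -0.58, and Adgrg3 -1.60, -2.99 and -2.26 (0.1 CPM added to both sides). Genes with this library lowest of the 5 and a ratio at least as low as that of Adgrg3 made up 0.363% of 8000 genes over all kept cells, 0.172% of 8705 genes in B-like cells, 0.117% of 9384 in basophil and mast-like cells and 0.234% of 8988 in monocyte-like cells. In the other classes where Adgrg3 was lowest in this library at a mean of 5 CPM or more the shares were higher, with 0.772% in neutrophil-like, 1.69% in endothelial-like and 6.87% in promyelocyte-like cells, the class with its highest level. In megakaryocyte-like cells this library had 0 Adgrg3 UMIs and the other 4 had 9 in all, so no ratio is given. For Adgrg1 the share was 3.95% over all kept cells, 2.30% in B-like and 11.4% in basophil and mast-like cells, and over the 9 classes where Adgrg1 was lowest in this library it ran from 1.47% in macrophage-like to 29.6% in megakaryocyte-like cells.

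At least a 2-fold gap with this library lowest, again with 0.1 CPM added, was found in 5.15% of genes over all kept cells, 3.66% in B-like, 1.77% in basophil and mast-like, 4.63% in endothelial-like and 3.00% in neutrophil-like cells. Adgrg3 was among them in all of these, and Adgrg1 over all kept cells and in B-like cells. In endothelial-like cells Adgrg1 was the lowest in this library by 2.01-fold, and fell short of 2-fold only with the added 0.1 CPM. The share was 5.84% in erythroid-like, 6.47% in hepatocyte-like and 5.38% in macrophage-like cells, where Adgrg1 was among them, and 1.18% in monocyte-like cells, where Adgrg3 was. Neither gene was among the 2.47% of genes in promyelocyte-like, the 17.3% in mesenchymal-like or the 25.2% in megakaryocyte-like cells. In neutrophil-like cells Adgrg1 measured 8.73 CPM in this library, within the range of 7.76 to 12.0 CPM of the others.

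The 10 erythroid markers, of which 9 were detected, summed to 116480 CPM in B-like cells of Jag1Ndr/+ replicate 1 and to 81821 to 96301 CPM in the other 4, and in monocyte-like cells to 66382 against 46491 to 51030 CPM. Xist lay above the Y-linked gene Ddx3y in that library and in Jag1Ndr/Ndr replicate 2 only. The part of the erythroid RNA and of sex in the low values was not tested. The other Jag1Ndr/+ matrix at E16.5 is the shared library with 2 labels, so no second heterozygous library of certain genotype was present to compare.

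**Figure D3:**
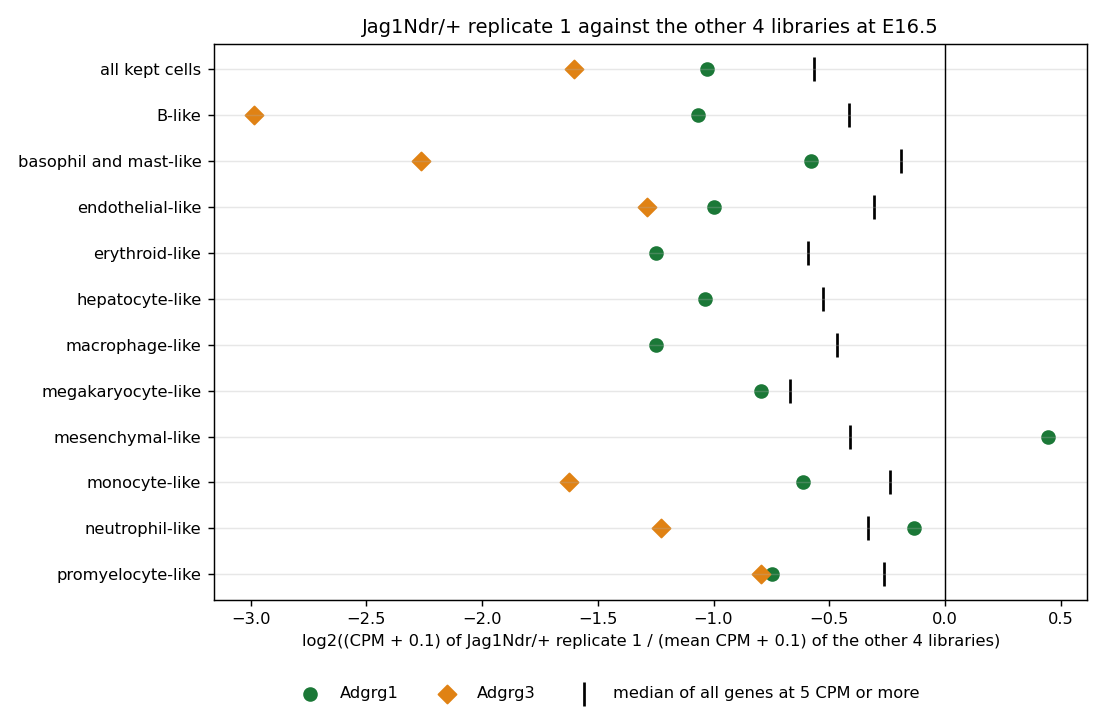
Log2 ratio of Jag1Ndr/+ replicate 1 to the mean of the other 4 E16.5 libraries for Adgrg1 (circles) and Adgrg3 (diamonds), by class, with 0.1 CPM added to both sides. Black ticks give the median of all genes with at least 5 CPM in the class, from -0.67 to -0.19. Adgrg3 lies left of the tick in each class shown, and Adgrg1 in all but neutrophil-like and mesenchymal-like cells. Adgrg3 is not drawn where its mean was under 5 CPM or, in megakaryocyte-like cells, where Jag1Ndr/+ replicate 1 had 0 UMIs.

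The wider surroundings were examined for a change of the same kind. Within 500 kb of the stretch from Adgrg5 to Adgrg3 the matrices held 31 other genes, of which 21 were tested over all kept cells. In edgeR, 0 of the 21 passed the adjusted threshold and 1 reached an unadjusted p under 0.05, with a median log2 difference of -0.02 that equals that of all genes tested. Both homozygous libraries lay below the other 3 for 2 of them, Ciapin1 and Usb1, and above for 0, where 4.92% and 1.34% of all genes tested did so. These counts were made after the values were seen.

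The smallest p belonged to Ciapin1, a factor of cytosolic iron-sulfur protein assembly. This gene is on the minus strand, and its lowest base lies at -104 kb from the start of Adgrg5. It measured 27.1, 31.2 and 29.8 CPM in Jag1+/+ replicate 1, the shared library and Jag1Ndr/+ replicate 1, and at most 16.9 CPM in either Jag1Ndr/Ndr library, a log2 difference of -0.75 (SE 0.268, adjusted p = 1.00 in edgeR). The next were Kifc3, a kinesin motor, at -0.43 (SE 0.233), and Drc7, a part of the dynein regulatory complex of cilia, at 0.49 (SE 0.296), both with an adjusted p of 1.00 in edgeR. Ccdc102a, the gene that ends closest before Adgrg5, measured 1.42, 1.64 and 0.861 CPM against 0.896 and 1.03 CPM. Over all kept cells, none of the 21 other tested genes differed as much as Adgrg5, which was chosen for its low value. Only 399 of 17038 kept cells of Jag1+/+ replicate 1 were monocyte-like, so a change confined to such cells could be missed here. The surrounding genes are not given within classes.

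Jag1Ndr/+ replicate 1 was the lowest library for 15 of the 21 genes, a share near the 65.8% of all genes tested over all kept cells that had it lowest, and the median log2 ratio was -0.48 compared with -0.58 for all genes. Nlrc5 and Drc7 were the 2 of the 21 genes at least 2-fold below the mean of the other 4 libraries. Jag1Ndr/+ replicate 1 was the lowest library for Drc7, at 0.668 CPM against 1.20 to 1.84 CPM, but not for Nlrc5, which measured 0.0961 CPM there and 0.0705 CPM in Jag1Ndr/Ndr replicate 2. Drc7 is the gene that follows Adgrg3.

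**Figure D4:**
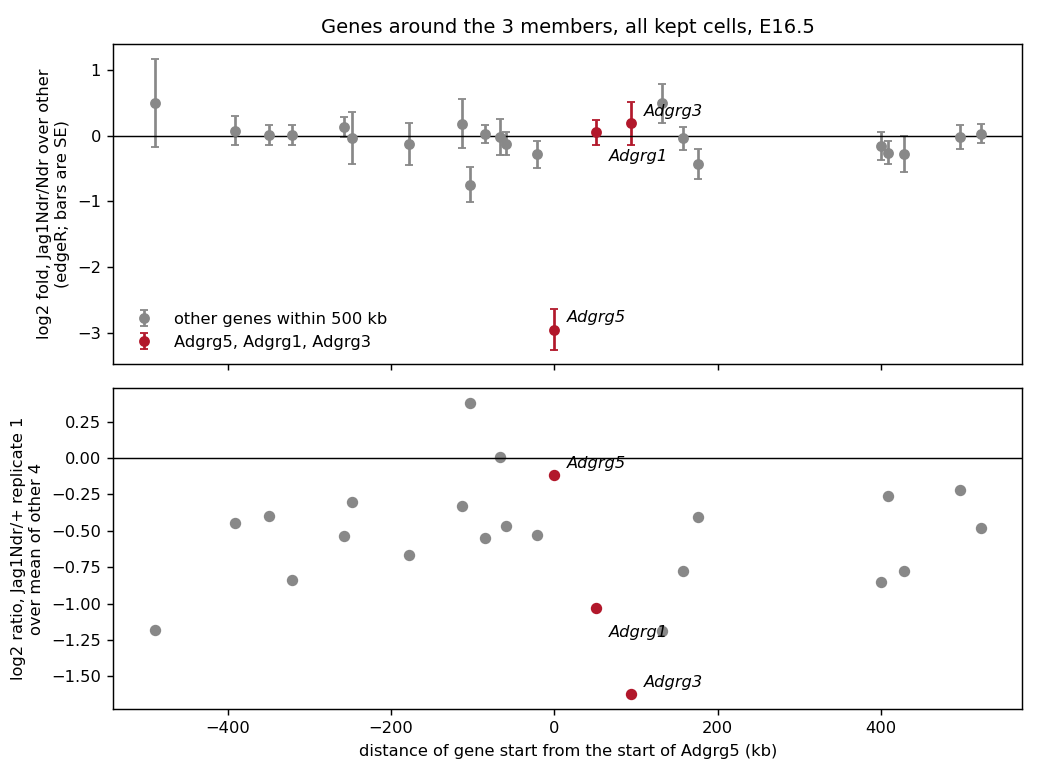
The 21 tested genes within 500 kb (grey) and the 3 members (red), placed by distance from the start of Adgrg5, over all kept cells at E16.5. The gene start on the axis is the lowest base of each gene, which is where minus-strand genes end. The upper panel shows the log2 fold of homozygous over other libraries with bars of 1 SE, where Adgrg5 at -2.95 lies apart and the other genes lie between -0.75 and 0.50. The lower panel shows the log2 ratio of Jag1Ndr/+ replicate 1 to the other 4 libraries, where Adgrg3 at -1.62 is the lowest point.

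Related genes were taken from 2 lists. Of 27 other adhesion receptors 19 were tested over all kept cells, with a median log2 difference of 0.05 compared with -0.02 for all genes. The second list, mostly G protein and cyclic AMP genes (16 tested), had a median of -0.0015. Within classes, 3 of 85 pairs of the first list and 5 of 137 of the second reached an unadjusted p under 0.05 in edgeR. Of all 110394 pairs 1889 did, and 0 pairs of either list were called. Over all kept cells, 0 genes of the 2 lists passed the adjusted threshold in edgeR, and 0 reached an unadjusted p under 0.05. Outside these lists, Tgm2, which encodes the Adgrg1 ligand transglutaminase 2, measured 16.2, 24.0 and 11.2 CPM against 10.9 and 14.8 CPM, and Col3a1, which encodes collagen III, 9.30, 12.5 and 9.07 CPM against 9.22 and 12.2 CPM.

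The genes of smallest p in the 2 lists were likewise not called. Adgrl2, a latrophilin, had a log2 difference of 0.27 (SE 0.193) and Adgrg6, a receptor needed for myelination by Schwann cells, one of 0.28 (SE 0.257). Prkaca, a catalytic subunit of protein kinase A, stood at 0.16 (SE 0.139), and Adcy7, an adenylyl cyclase, at -0.24 (SE 0.237). Each had an adjusted p of 1.00 in edgeR.

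The order of the classes differed between the 3 genes, although they are neighbours. At E16.5, in the 3 libraries without the homozygous label, Adgrg5 measured 13.7 ± 0.485 CPM in monocyte-like cells, above the next class, promyelocyte-like, in every library (2.06 ± 0.577 CPM, SD, n = 3). Below that, promyelocyte-like and basophil and mast-like cells (1.49 ± 0.446 CPM) had overlapping ranges over the libraries, and 0 UMIs were counted in megakaryocyte-like and mesenchymal-like cells.

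Adgrg1 was highest in basophil and mast-like cells with 186 ± 47.6 CPM, followed by megakaryocyte-like cells with 109 ± 34.8 CPM and B-like cells with 94.4 ± 36.8 CPM (SD, n = 3). The ranges of these neighbours in the order overlapped, and B-like cells were above promyelocyte-like cells (33.1 ± 6.11 CPM) in every library. The lowest class was neutrophil-like with 9.64 ± 2.06 CPM. Adgrg3 ran from 71.6 ± 24.0 CPM in promyelocyte-like cells over 45.7 ± 20.4 CPM in neutrophil-like and 34.5 ± 14.0 CPM in endothelial-like cells to 0.815 ± 0.687 CPM in erythroid-like cells and 0 UMIs in mesenchymal-like cells, with overlapping ranges between neighbours at the top.

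The genes with the most similar order over the 11 classes, by Pearson's r of log2(mean CPM + 1) among 12365 genes, were Apba1 (r = 0.952), C1galt1c1, H2-DMb2, Sh2d1b1 and Ccr2 for Adgrg5. For Adgrg1 they were Diras2 (r = 0.933), Lyrm9, Rabgap1l, Mmrn1 and Eya1, and for Adgrg3 Pde4d (r = 0.937), Mcu, Mpp7, Slc37a1 and Mtf1. All 5 genes of the Adgrg5 set were highest in monocyte-like cells, among them Ccr2, the receptor that lets monocytes leave the bone marrow, with 409 CPM. These are descriptions over classes that share libraries and depth.

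At P3 the libraries were compared with E16.5 over the classes present in both. The stage cannot be told apart from the digestion, the software version and the gene list, and the make-up of a class can differ, since B-like clusters were led by Vpreb1 and Igll1 at E16.5 and mostly by Igkc, Ms4a1 or Il7r at P3. The erythroid markers summed to 46491 to 66382 CPM in monocyte-like cells at E16.5 and to 1275.9 to 3086.1 CPM at P3. In promyelocyte-like cells they summed to 30316 to 55443 CPM and to 981.6 to 2303.5 CPM. The 10 neutrophil markers there summed to 17309 to 34646 CPM at E16.5 and to 67711 to 100140 CPM at P3. The part of these markers in the stage differences was not tested. Adgrg1 was lower at P3 in B-like, macrophage-like, monocyte-like, neutrophil-like and promyelocyte-like cells, with log2 differences of -2.14 to -2.85. Of the 22 pairs of class and member that could be tested, 11 were called in edgeR, a share near the 48.4% of all 99893 pairs that were called. The 3 higher calls stand beside 24.0% of all pairs called higher, and the 8 lower calls beside 24.4% called lower. The higher calls include Adgrg5 in basophil and mast-like cells, where the homozygous values on which it was chosen enter. Among the 48349 calls 49.5% were higher, and with library totals 60.4% of 44846 were.

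In B-like cells Adgrg1 fell from 102 to 120.0 CPM in 4 of the E16.5 libraries and 52.2 CPM in Jag1Ndr/+ replicate 1 to 23.6, 18.0, 32.6 and 26.3 CPM in libraries A to D, a log2 difference of -2.16 (SE 0.204, adjusted p = 6.83e-06 in edgeR). In neutrophil-like cells it fell from 7.76 to 12.0 CPM to 0.914 to 1.48 CPM, a difference of -2.85 (SE 0.199, adjusted p = 6.22e-07 in edgeR). Promyelocyte-like cells went from 26.3 to 53.4 CPM to 7.89 to 10.8 CPM, a difference of -2.14 (SE 0.202, adjusted p = 2.30e-06 in edgeR). The ranges of E16.5 and P3 did not overlap in these 3 classes. How many of all pairs did the same was not counted, and 48.4% of all pairs were called between stages. The size depended on how cells were chosen, since the difference was -0.70 in promyelocyte-like cells at Leiden resolution 2 and -1.43 in neutrophil-like cells with doublets kept, both still called.

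The log2 difference of Adgrg1 was -2.52 (SE 0.248) in monocyte-like and -2.68 (SE 0.228) in macrophage-like cells, both called, and the latter was -1.92 with doublets kept. In monocyte-like cells the neutrophil markers summed to 3737.8 to 7024.7 CPM at E16.5 and to 9929.9 to 22586 CPM at P3. In basophil and mast-like cells Adgrg1 went from 131 to 214 CPM to 81.8 to 104 CPM, a difference of -1.06 (SE 0.133, adjusted p = 3.92e-05 in edgeR). This class held 1110 barcodes at P3 but only 221 at Leiden resolution 2. In erythroid-like cells the difference was -0.79 (SE 0.167, adjusted p = 0.00203 in edgeR), and with library totals it was -0.40 and no longer called.

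Megakaryocyte-like cells were an exception that depends on the scaling. Adgrg1 measured 70.8 to 139 CPM there at E16.5 and 225 to 279 CPM at P3, with no overlap, yet the TMM-scaled difference was 0.01 (SE 0.197, adjusted p = 0.960 in edgeR). With library totals it was 1.14 (adjusted p = 0.0009 in edgeR). In this class the median log2 difference of all genes was 1.30 with library totals and 0.16 with TMM factors, so Adgrg1 lay below the median gene under both scalings. Median depths of these cells were 2563 to 4487 UMIs at E16.5 and 10236 to 26052 UMIs at P3.

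Adgrg3 kept its place in the granulocyte line at P3. It measured 78.0 to 119 CPM in promyelocyte-like cells, 48.7 to 67.5 CPM in neutrophil-like cells and 56.9 to 103 CPM in endothelial-like cells. In endothelial-like cells it was higher than at E16.5 by 0.81 on the log2 scale (SE 0.211, adjusted p = 0.00510 in edgeR), and in B-like cells it was lower, at 1.72 to 4.43 CPM with a log2 difference of -1.84 (SE 0.479, adjusted p = 0.00735 in edgeR). The difference in promyelocyte-like cells, 0.38 (SE 0.149, adjusted p = 0.0465 in edgeR), was lost in 12 of 18 alternative settings, with adjusted p-values of 0.0205 to 0.400. Jag1Ndr/+ replicate 1 was the lowest library of both stages in promyelocyte-like and endothelial-like cells.

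At P3, Adgrg5 measured 18.1, 15.2, 27.8 and 44.8 CPM in monocyte-like cells of libraries A to D. The difference from E16.5 was 1.37 (SE 0.586, adjusted p = 0.0696 in edgeR) and was called in 3 of 18 alternative settings. In basophil and mast-like cells Adgrg5 measured 5.24, 2.98, 6.51 and 15.9 CPM, a difference of 2.45 from E16.5 (SE 0.493, adjusted p = 0.00124 in edgeR). This P3 cluster of 1110 barcodes was led by Prss34, Mcpt8 and Cpa3 but also by Hmga2 and Mpo. At Leiden resolution 2 only 221 barcodes were named basophil and mast-like, and a cluster of 1101 led by Cd34, Prg2 and Hmga2 stayed unnamed. Dendritic-like cells, a class that was named at P3 only, measured 19.2, 17.2, 20.6 and 43.1 CPM, and T-like cells, whose cluster was also led by Gzma and Nkg7, 21.4, 13.6, 24.7 and 12.1 CPM. Dendritic-like cells lay above monocyte-like cells in libraries A and B, and T-like cells did so in library A, so no single class was the highest in every P3 library. The values of the 2 homozygous E16.5 libraries, on which Adgrg5 was chosen, enter these differences. The p-values are therefore not independent of that choice. Without the libraries with a homozygous label the monocyte-like difference was 0.65 (adjusted p = 0.146 in edgeR). In basophil and mast-like cells the homozygous libraries measured 0.895 and 0.360 CPM at E16.5 and the other libraries 1.04 to 1.93 CPM.

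**Figure D5:**
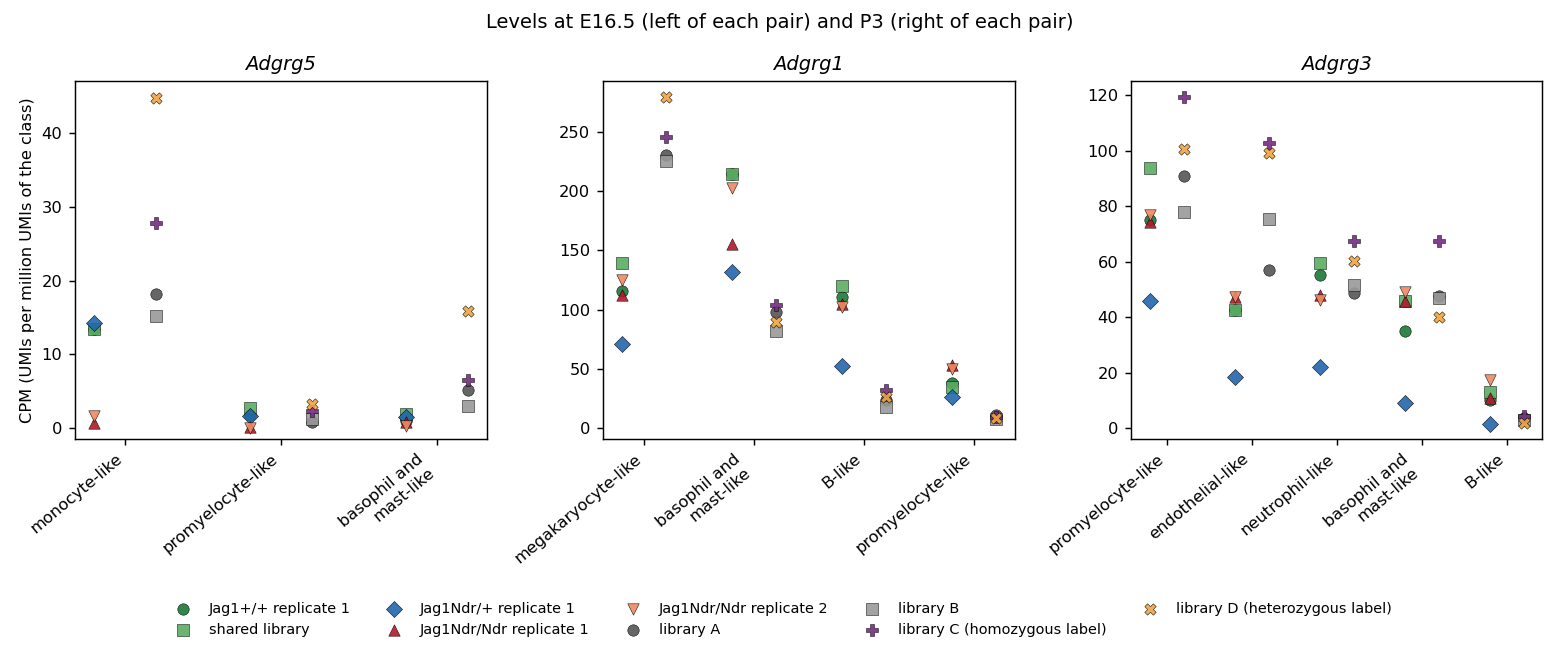
Levels of the 3 genes in CPM on a linear axis at E16.5 (5 libraries, left of each pair) and P3 (4 libraries, right of each pair) in selected classes. Each symbol is 1 library. Adgrg1 in B-like and promyelocyte-like cells is lower in every P3 library than in every E16.5 library, a separation not counted over all pairs. Adgrg5 in monocyte-like cells at P3 lies between 15.2 and 44.8 CPM, also in library C with the homozygous label.

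Whether the low Adgrg5 of homozygous livers was also present at P3 could only be read from single libraries. In monocyte-like cells, library C with the homozygous label measured 27.8 CPM (95% interval 22.5 to 34.0), below the 44.8 CPM (35.6 to 55.6) of library D with the heterozygous label and above libraries A and B. Library C over library D came to a log2 ratio of -0.69, with a counting interval of -1.13 to -0.24. The E16.5 value of -3.58 came from a TMM-scaled fit of groups of libraries and is not the same measure. The counting interval also leaves out the spread between animals. With 1 library per label there is no test, and libraries C and D also differed in depth, with medians of 6713 and 5215 UMIs in these cells.

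For Adgrg1 the values over all kept cells at P3 were 20.1, 19.1, 22.6 and 25.1 CPM in libraries A to D, and for Adgrg3 21.0, 17.7, 20.9 and 12.8 CPM. Library D had the lowest Adgrg3 of the 4, with a log2 ratio of C to D of 0.71 (counting interval 0.585 to 0.828). Within promyelocyte-like and neutrophil-like cells it measured 101 and 60.4 CPM, inside the range of the other libraries. It was the lowest of the 4 in B-like cells (1.72 CPM against 3.11 to 4.43 CPM) and in basophil and mast-like cells (40.2 CPM against 47.0 to 67.5 CPM), and in both the counting intervals of C and D did not overlap. Library D was also the lowest in T-like, dendritic-like and megakaryocyte-like cells, where these intervals overlapped.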

How the data were processed

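Per the file headers, the authors deposited raw UMI counts per gene and barcode, written by version 3.1.0 of the 10x software at E16.5 and 3.0.2 at P3, without normalisation. The submitters' processing notes name Cell Ranger 2.1.1, R 4.1.2, Seurat and the mm10 build, whose role is not given in the sources used here. The authors' counts do not state how reads of near-identical genes were divided. Deposited barcode and gene lists hold names only. Ensembl identifiers matched GENCODE M21 for 31011 of 31053 genes at E16.5.

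Matrices sharing over 20% of barcodes were not used as separate libraries. Library C is the exception, a matrix that shared barcodes with library A and entered without them. Kept barcodes had 1000 or more UMIs, of which 15% or less were mitochondrial, less the 10% with the highest Scrublet score in each library. Cells were clustered per stage (scanpy 1.11.5, 2000 variable genes without the 3 members, 30 components, 15 neighbours, Leiden resolution 1 in igraph 0.11.9) and named from markers. A cluster stayed unnamed with over 50% of barcodes among the removed scores, under 3 detected markers, tied classes, or no marker among its leading genes and a low marker score, as for the 1 unnamed cluster of E16.5. Cluster names were rebuilt here and may differ from those of the study. UMI counts were summed per library and class and tested with edgeR 4.0.16 (R 4.3.3; quasi-likelihood, TMM, filterByExpr) with Benjamini-Hochberg adjustment over all genes, or all pairs of class and gene, for classes with at least 20 cells in each library. The SE given with an edgeR log2 difference is its absolute value divided by the square root of the F statistic of that test. For Adgrg5 at E16.5 this SE comes from the values on which the gene was chosen and is not used as a test. DESeq2 1.42.0 was an alternative. The self-check on simulated counts was run before the fits. A count of 0 allows 3 UMIs.

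The members, marker lists, gene lists and tests were chosen with earlier results of these data known. The result of 1 further gene list is not reported here. Genes are named by rule, namely the members in every class, the 3 genes within 500 kb and the 2 genes per list with the smallest p where none was called, and the 5 genes most like each member. Usb1, Ccdc102a and Nlrc5 are named outside this rule, with their values known, and Tgm2 and Col3a1 come from the list not reported here. The promoters come from RefSeq and matched all 3 members. Libraries are single animals per the labels, and with 2 and 3 libraries a p-value covers only the spread between them. Replicate numbers were checked for pairing. Over 5868 genes, the deviations of the homozygous replicate 1 correlated at 0.28 with Jag1+/+ replicate 1 and 0.03 with Jag1Ndr/+ replicate 1, and those of the homozygous replicate 2 at 0.22 with the shared library. With 2 homozygous libraries their deviations mirror each other, so these 3 correlations are not separate checks and cannot settle a pairing. As 1 of the 3 was under 0.1, the numbers were not taken to pair the animals. A fit with the replicate number as a block was run as an alternative.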

Additional observations from a re-analysis of the deposited data

How the results depend on the processing

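Adgrg5 stayed lower in the homozygous libraries under every alternative run, with log2 differences of -3.15 to -2.80 over all kept cells (13 alternatives), -4.28 to -3.09 in monocyte-like cells (14) and -6.64 to -3.12 in promyelocyte-like cells (10). A minimum of 2000 UMIs per barcode left every E16.5 value as it was and is not counted among these. All of these fits use the counts on which Adgrg5 was chosen, so the constant sign is a description and no further support. Both ends of the last 2 ranges came from leaving out Jag1Ndr/Ndr replicate 1 or 2, and the value of -6.64 rests on replicate 2, which had 0 UMIs in promyelocyte-like cells.

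For Adgrg1 and Adgrg3 the homozygous difference was called under 0 of 292 alternatives, and its sign changed under 36 of them. Over all kept cells Adgrg1 came to -0.15 with library totals and to -0.10 with Jag1Ndr/+ replicate 1 fitted as its own group, an alternative chosen after seeing the data. Adgrg3 came to -0.085 and -0.091 in these fits. Leaving out 1 library gave -0.083 to 0.15 for Adgrg1 and -0.074 to 0.48 for Adgrg3, with both lowest values without Jag1Ndr/+ replicate 1. With the replicate block the values were 0.03 and 0.16 (adjusted p = 1.00 in edgeR for both), the pairing by number changed 0 calls at E16.5, and at P3 it left 10 of the 11 member calls and 48995 calls in all. The call lost with the block was Adgrg3 in promyelocyte-like cells (0.40, adjusted p = 0.0520 in edgeR).

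Within classes, with Jag1Ndr/+ replicate 1 as its own group, the sign changed for Adgrg1 in B-like (-0.016) and neutrophil-like cells (0.018), and for Adgrg3 in macrophage-like (-0.044), neutrophil-like (-0.12) and promyelocyte-like cells (-0.082). With Xist status as a covariate it changed for Adgrg1 in basophil and mast-like (0.014), endothelial-like (0.063) and erythroid-like cells (0.11). Adgrg1 in erythroid-like cells was also 0.0048 with doublets kept and 0.030 with at most 10% mitochondrial UMIs, the latter setting giving -0.035 in megakaryocyte-like cells. At Leiden resolution 2, Adgrg1 was 0.14 in basophil and mast-like and -0.081 in megakaryocyte-like cells. With library totals Adgrg3 was -0.048 in erythroid-like cells. Leaving out 1 library gave Adgrg1 -0.013 to 0.29 in B-like, -0.17 to 0.12 in basophil and mast-like, -0.29 to 0.12 in endothelial-like, -0.23 to 0.12 in erythroid-like and -0.23 to 0.11 in neutrophil-like cells. For Adgrg3 it gave -0.15 to 1.78 in macrophage-like, -0.12 to 0.32 in neutrophil-like and -0.078 to 0.26 in promyelocyte-like cells. The cause of these changes was not tested.

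Genes called over all kept cells, 0 in edgeR, numbered 4 with DESeq2, 2 with no low-count filter and 0 to 1 with 1 library left out. Pairs of class and gene, also 0, numbered 16 with DESeq2, 431 with no filter, 1 with library totals, 1 with Jag1Ndr/+ replicate 1 as its own group and 0 to 60 with 1 library left out, the highest without Jag1Ndr/Ndr replicate 2. The cause was not tested.

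Between stages, 355 of 384 values under alternatives kept their direction and side of the threshold. The sign changed for Adgrg3 in hepatocyte-like cells at resolution 2 (0.48), for Adgrg1 in megakaryocyte-like cells with DESeq2 (-0.0044) and for Adgrg5 in promyelocyte-like cells without the libraries with a homozygous label (-0.57). Leaving out 1 library gave Adgrg1 -0.17 to 0.21 in endothelial-like and -0.038 to 0.14 in megakaryocyte-like cells. The call of Adgrg3 in promyelocyte-like cells was lost in 12 alternatives and that of Adgrg1 in erythroid-like cells in 1, the fit with library totals. Depth limits Adgrg5 at E16.5, which rests on 5 and 11 UMIs in monocyte-like cells of the homozygous libraries. Among calls that held, Adgrg1 moved by over 1.5 times in promyelocyte-like cells at resolution 2 (-0.70) and, with doublets kept, in neutrophil-like (-1.43) and macrophage-like cells (-1.92).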
